A study of Mus musculus with 6 samples.

Results

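The genes described here encode the machinery that reports amino acid supply to mTORC1, the growth-promoting kinase complex of the lysosome surface. They were taken by gene symbol from the deposited expression table, and all 31 were found among its 45777 genes. They were grouped by complex into the mTORC1 core (5 genes), the Rag GTPases (4), Ragulator (5), GATOR1 (3), GATOR2 (5), the folliculin complex (3), the TSC complex with Rheb (3), the arginine transceptor Slc38a9 (1) and the sestrins (2). The sestrins listed are *Sesn1* and *Sesn3*, and *Sesn2* is not among the members.

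The study examined how loss of the kinase PAK4 from hepatocytes changes the liver transcriptome during a fast. Livers came from 3 control mice (WT), which carried *Pak4* flox/flox without Cre, and 3 liver-specific knockout mice (LKO), which carried Alb-Cre and *Pak4* flox/flox. All mice were C57BL/6 males aged 8 weeks, both genotypes were fasted for 24 h, and each mouse gave 1 RNA-seq library. Because the albumin promoter drives Cre in hepatocytes, the other liver cells of LKO mice keep the floxed gene intact, and the controls were floxed littermates that do not control for Cre itself. No fed mice are in the series, so each comparison is between genotypes within the fasted state.

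When amino acids are plentiful, Rag GTPase dimers anchored by Ragulator bring mTORC1 to the lysosome, where Rheb switches the kinase on. GATOR1 and the TSC complex are brakes on the Rags and on Rheb, and GATOR2 restrains GATOR1. Sestrins bind GATOR2, and the folliculin complex acts on RagC and RagD. In fasted liver, low mTORC1 activity is known to accompany autophagy and ketone body production. These steps are run by protein activity and location, which RNA levels do not measure.

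The libraries held 45934632 to 55205564 counts (WT) and 53936281 to 59576437 counts (LKO), and levels are given as CPM, counts relative to library size after TMM scaling. *Pak4* itself (chr7:28558819-28598184) was at 3.59, 3.21 and 4.097 CPM in WT mice 1 to 3 and at 1.93, 1.49 and 3.22 CPM in LKO mice 1 to 3, so the library labelled LKO 3 lay within the WT range (log2 fold change of LKO over WT −0.71, SE 0.31, edgeR quasi-likelihood test, Benjamini-Hochberg adjusted p = 0.101). Per length and within the library, as TPM, *Pak4* did not overlap (2.31 to 2.59 in WT and 0.265 to 0.845 in LKO), but on that scale the median gene also had a log2 ratio of −1.59, so this does not set LKO 3 apart from WT. The libraries of the genotypes differed in makeup. The 7SL RNAs took 4.55% to 5.24% of the counts in WT livers and 11.2% to 15.8% in LKO livers, and the summed CPM of 6 hepatocyte markers was 44224 to 47249 in WT livers and 106186 to 129449 in LKO livers. Summed markers of other cells were also higher in every LKO mouse for Kupffer cells (299 to 522 CPM against 182 to 280), endothelial cells (331 to 370 against 211 to 254), stellate cells (156 to 186 against 110 to 131) and erythroid cells (857 to 1611 against 138 to 277). They overlapped for lymphocytes (27.6 to 42.6 in LKO against 42.5 to 63.5 in WT) and cholangiocytes (2.03 to 3.73 against 1.83 to 2.39). Not all markers went with their sum. Those called higher were 3 of 6 for hepatocytes, 3 of 6 for Kupffer cells, 3 of 5 for endothelial, 1 of 5 for stellate and 2 of 4 for erythroid cells. *Ttr* among the hepatocyte markers (−1.35) and *Cd68* among the Kupffer markers (−1.29) were called lower. *Serpina1c* (−0.63), *Adgre1* (−0.12), *Csf1r* (−0.18) and the stellate marker *Col1a1* (−0.24) were below 0 without a call. The abundant endothelial markers *Stab2* (0.17) and *Kdr* (0.09) were not called. No listed marker was at 0 counts in all 6 mice. The part of library makeup and cell mixture in the results below was not tested, and in whole liver RNA fewer cells of a type cannot be told apart from less RNA per cell.

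All 31 members passed the filter on low counts, which kept the 18636 genes with at most 1 zero count among the 6 mice. In LKO liver 15 members were called at an adjusted p under 0.05, of which 5 were higher (*Sesn1*, *Mios*, *Fnip1*, *Lamtor5* and *Rheb*) and 10 were lower (*Sesn3*, *Fnip2*, *Mlst8*, *Mtor*, *Depdc5*, *Tsc2*, *Deptor*, *Wdr59*, *Wdr24* and *Rptor*). Changed genes were common in these livers, since 40.1% of all genes tested were called, 19.6% as higher and 20.5% as lower. The members called made up 48.4% of the list, 16.1% as higher and 32.3% as lower, beside 20% and 24.2% of protein-coding genes. The median log2 fold change of the members was −0.10, beside −0.04 for all genes and −0.11 for protein-coding genes. The CPM of the genotypes did not overlap for 20 members (64.5%), beside 54% of all genes. No list test was made, and the complexes are described in turn.

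**Figure D1:**
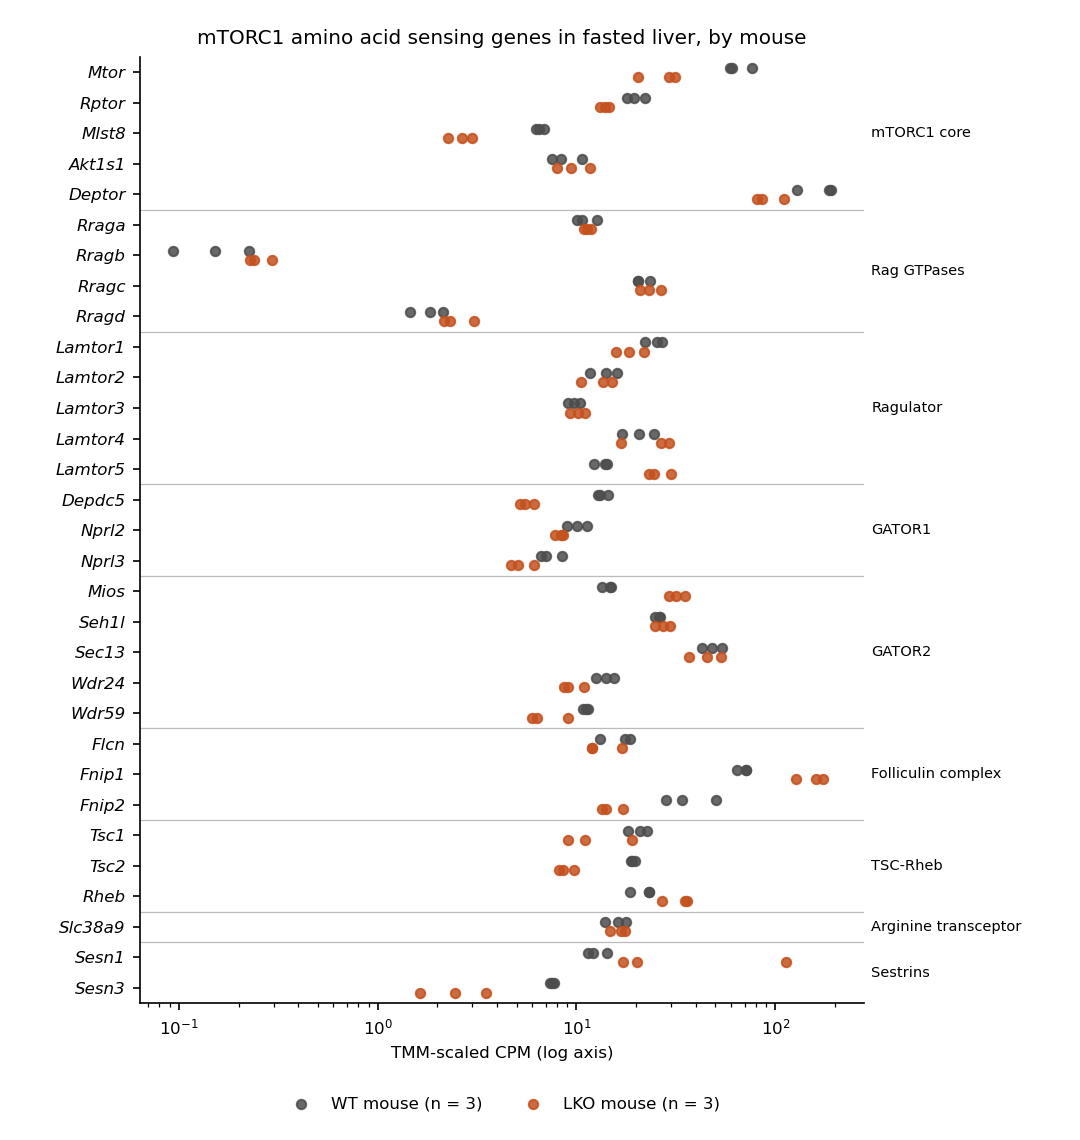
TMM-scaled CPM (log axis) of each of the 31 members in each of the 3 WT mice (grey) and 3 LKO mice (orange), grouped by complex. *Mtor*, *Mlst8*, *Depdc5*, *Fnip2*, *Tsc2* and *Sesn3* are lower and *Lamtor5*, *Mios* and *Fnip1* higher in every LKO mouse under TMM scaling, and LKO mouse 3 is the single high point of *Sesn1* at 113 CPM.

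The zero point of these changes depends on the scaling. Scaling by total counts in place of TMM moved the median of all genes from −0.04 to −0.90 on the log2 scale, a shift of −0.86. On the TPM scale the median gene had a log2 ratio of LKO over WT of −1.59, the median member −1.66, and 30 members had a lower mean TPM in LKO livers, with *Sesn1* as the exception. The higher mean of *Sesn1* came from LKO mouse 3 alone (32.5 TPM). In LKO mice 1 and 2 it was at 4.51 and 3.89 TPM, below every WT mouse (7.37 to 10.4 TPM). A rise under TMM scaling is therefore a rise relative to the typical gene. Against total counts no member was called higher (6.26% of all genes were) and 24 were called lower (51.4% of all genes were), and *Rheb* turned to −0.28 while *Lamtor5*, *Mios* and *Fnip1* stayed above 0 at 0.07, 0.29 and 0.29. On log2(TPM + 1) these 3 genes turned to −0.58, −0.20 and −0.38. The falls of *Mtor*, *Mlst8*, *Deptor*, *Depdc5*, *Fnip2*, *Tsc2* and *Sesn3* were called under all 19 alternative settings tried. Total counts, log2(TPM + 1) and log2(TPM + 0.1) are among these settings and put the median of all genes at −0.90, −0.79 and −1.34. They favour a call as lower, so they cannot show that falls are firmer than rises. Ratios between 2 members within 1 mouse do not depend on the scaling between libraries, and are given beside the pairs.

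**Figure D2:**
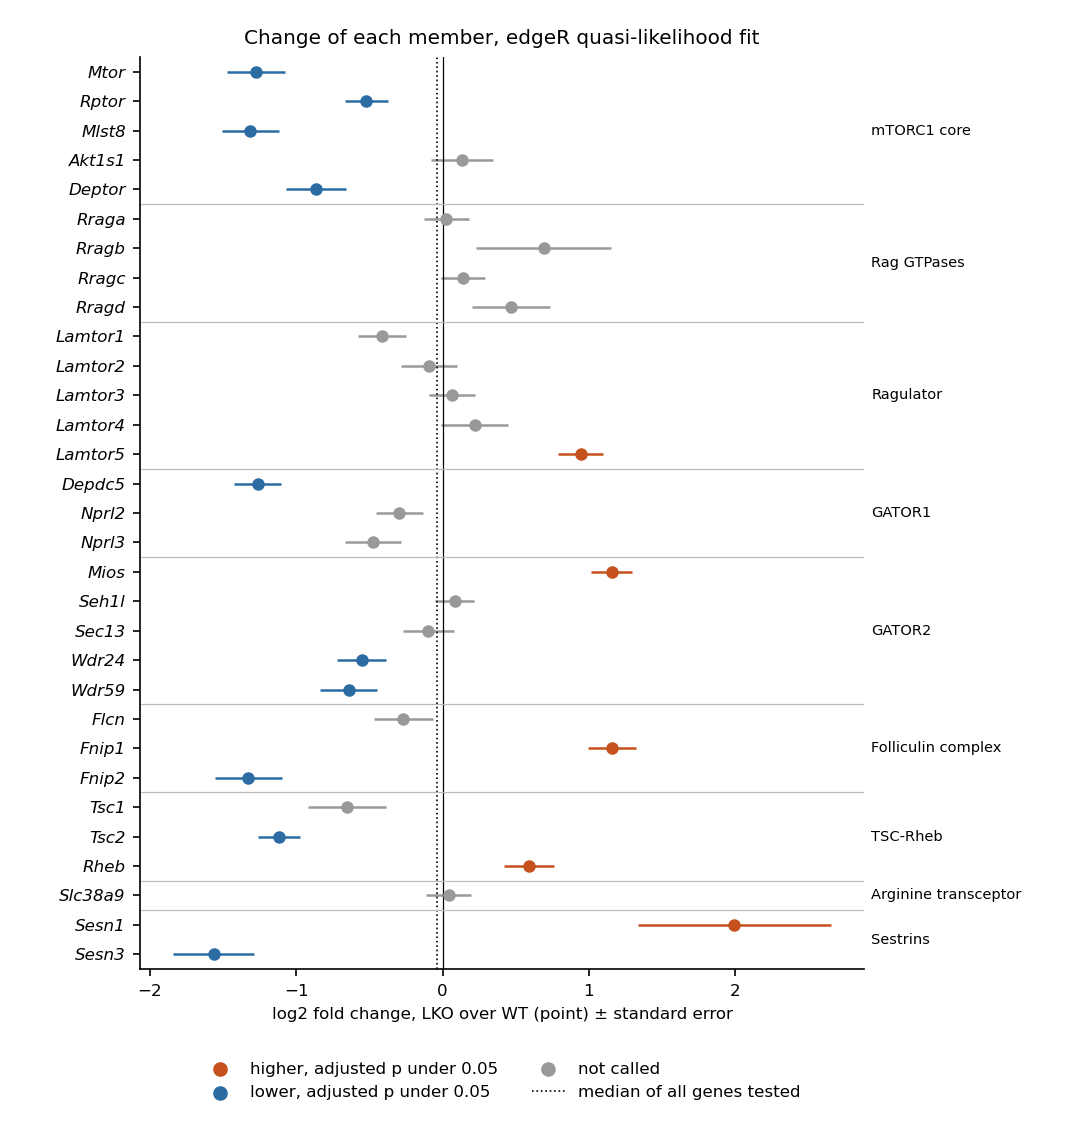
Log2 fold change of LKO over WT (points) with its standard error (bars) for the 31 members in the edgeR quasi-likelihood fit with TMM scaling, coloured by call, with the median of all genes tested as a dotted line. Within the GATOR2, folliculin, TSC-Rheb and sestrin groups calls in both directions stand side by side, and under scaling by total counts the point of *Rheb* would lie below 0.

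The mTORC1 core fell in 4 of its 5 genes, with a median log2 fold change of −0.86. *Mtor* (chr4:148448582-148557685 in GRCm38.p6), the kinase itself, was at 58.9, 60.6 and 76.1 CPM in WT livers and at 31.4, 29.2 and 20.3 CPM in LKO livers. The lowest WT mouse was above the highest LKO mouse, and the level was 2.42-fold lower in LKO liver (log2 fold change −1.27, SE 0.20, edgeR adjusted p = 0.00172). *Mlst8*, a small subunit that binds the kinase domain, was at 6.88, 6.51 and 6.23 CPM against 2.98, 2.67 and 2.25 CPM and was 2.49-fold lower (−1.31, SE 0.20, edgeR adjusted p = 0.00139). Kinase and subunit moved together: the TPM ratio of *Mlst8* to *Mtor* was 0.298, 0.276 and 0.207 in WT livers and 0.239, 0.230 and 0.283 in LKO livers, and overlapped.

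*Rptor*, which encodes Raptor, the subunit that recruits substrates and docks on the Rags, was lower by a smaller amount. It was at 19.4, 18.03 and 22.2 CPM in WT livers and 13.8, 14.7 and 13.1 CPM in LKO livers (−0.52, SE 0.15, edgeR adjusted p = 0.0217). The genotypes did not overlap, but the call was lost when WT mouse 1 or WT mouse 3 was left out (−0.54 and −0.45) and with the correction for gene length (−0.36). The TPM ratio of *Rptor* to *Mtor* was 0.406, 0.395 and 0.369 in WT livers and, without overlap, 0.570, 0.678 and 0.799 in LKO livers, a mean log2 difference of 0.80. *Deptor*, an inhibitory subunit shared with mTORC2, was the most abundant of the core genes per length (38.9 ± 8.51 TPM in WT livers, mean ± SD, n = 3). It fell from 128, 186 and 191 CPM to 80.8, 86.0 and 110.5 CPM (−0.86, SE 0.21, edgeR adjusted p = 0.011). *Akt1s1*, which encodes the inhibitory subunit PRAS40, was the core gene that did not pass the test (7.55 to 10.6 CPM in WT livers and 7.94 to 11.7 CPM in LKO livers, 0.13, SE 0.21).

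None of the 4 Rag GTPase genes was called by edgeR or DESeq2, and 0 of 4 had an unadjusted p under 0.05. *Rraga*, which encodes RagA, was at 10.7, 10.1 and 12.7 CPM in WT livers and 10.97, 11.3 and 11.8 CPM in LKO livers (0.03, SE 0.16, edgeR adjusted p = 0.907). *Rragc*, which encodes its usual partner RagC, was at 20.5, 20.4 and 23.4 CPM against 20.8, 23.2 and 26.7 CPM (0.14, SE 0.15, edgeR adjusted p = 0.489). Both ranges overlapped between the genotypes. These were the main paralogs in these livers. RagB (*Rragb*) was at 0.094 to 0.227 CPM in WT livers and 0.229 to 0.295 CPM in LKO livers, and *Rraga* exceeded it per length by 123-fold to 333-fold within each mouse. RagD (*Rragd*) was at 1.45 to 2.12 CPM in WT livers and 2.16 to 3.04 CPM in LKO livers, and the TPM ratio of *Rragc* to *Rragd* was 14.8 to 31.4. Neither *Rragb* (0.69, SE 0.46) nor *Rragd* (0.47, SE 0.27) passed the test although their CPM did not overlap, and all 4 Rag genes turned below 0 against total counts, where 2 were called lower.

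In Ragulator, the pentamer that holds the Rags on the lysosome, 1 of 5 subunits was called. *Lamtor5* (chr3:107278858-107284082) was at 13.8, 12.2 and 14.2 CPM in WT livers and at 23.1, 29.8 and 24.5 CPM in LKO livers. It was 1.92-fold higher relative to the typical gene (0.94, SE 0.16, edgeR adjusted p = 0.00212), while its mean TPM was lower in LKO livers. The membrane anchor *Lamtor1* was at 26.9, 22.1 and 25.6 CPM against 18.3, 21.8 and 15.9 CPM. These ranges did not overlap, but *Lamtor1* passed the test only when LKO mouse 2 was left out (−0.54), with the gene length correction (−0.63) or on the total count and TPM scales, and not in the fit to all mice (−0.41, SE 0.16, edgeR adjusted p = 0.0758). The order of the 2 subunits per length differed between genotypes. The TPM ratio of *Lamtor5* to *Lamtor1*, a pair chosen after its values were seen, was 0.690, 0.741 and 0.744 in WT livers and 1.69, 1.84 and 2.07 in LKO livers. Likewise, the TPM ratio of *Lamtor1* to *Rraga*, a GTPase it anchors, was 2.73 to 3.43 in WT livers and 1.83 to 2.62 in LKO livers, without overlap. *Lamtor2*, *Lamtor3* and *Lamtor4* overlapped between genotypes, with log2 fold changes of −0.09, 0.06 and 0.22.

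GATOR1 is the GTPase-activating complex that turns RagA and RagB off. Its largest subunit *Depdc5* (chr5:32863646-32994233), which contacts the Rags, was lower in every LKO mouse and fell from 13.1, 14.5 and 12.9 CPM to 6.11, 5.19 and 5.51 CPM. The 2.40-fold difference was wide of the spread between mice (−1.26, SE 0.16, edgeR adjusted p = 6.7e-04). The catalytic subunit *Nprl2* was at 8.97 to 11.3 CPM in WT livers and 7.81 to 8.57 CPM in LKO livers (−0.30, SE 0.16), and its partner *Nprl3* at 6.61 to 8.50 CPM and 4.67 to 6.12 CPM (−0.48, SE 0.19). Neither passed the test, although without LKO mouse 3 *Nprl3* did (−0.60). Per length, the ratio of *Nprl2* to *Depdc5* was 4.61, 3.71 and 3.72 in WT livers and 6.64, 8.42 and 7.70 in LKO livers, a mean log2 difference of 0.92 without overlap. *Nprl2* shares bases with *Cyb561d2* (6.36 CPM in WT livers and 3.61 CPM in LKO livers on average), and whether the counting used strand is not given in the sources used here, so the reads of the pair may be mixed. *Mtor*, *Mlst8*, *Lamtor1*, *Nprl3*, *Fnip2* and *Tsc2* also share bases with a coding gene. Of these coding genes, *Pkd1*, beside *Tsc2*, had the highest mean in WT livers (33.3 CPM), followed by *Mpg*, beside *Nprl3* (3.82 CPM). The others were at most 0.319 CPM.

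GATOR2 relays leucine and arginine signals to GATOR1. Of its 5 genes 1 was called higher and 2 lower (20% and 40%, beside 20% and 24.2% of protein-coding genes). *Mios* (chr6:8209111-8240573), which encodes a subunit of the complex core, was at 13.5, 14.8 and 14.9 CPM in WT livers and at 29.3, 31.7 and 35.3 CPM in LKO livers. It was 2.23-fold higher relative to the typical gene (1.16, SE 0.14, edgeR adjusted p = 6.0e-04), and the sign turned on the TPM scale. *Wdr24* fell from 12.5, 15.5 and 14.1 CPM to 10.95, 9.12 and 8.63 CPM (−0.55, SE 0.17, edgeR adjusted p = 0.0295). *Wdr59* fell from 10.8, 11.2 and 11.4 CPM to 6.32, 5.96 and 9.06 CPM (−0.64, SE 0.20, edgeR adjusted p = 0.0312).

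The calls of *Wdr24* and *Wdr59* were lost when most of the mice were left out in turn, while the fold changes stayed of similar size. Without WT mouse 2, WT mouse 3, LKO mouse 2 or LKO mouse 3, *Wdr24* was no longer called (−0.51, −0.55, −0.52 and −0.49). Without any 1 of WT mice 1, 2 and 3 and LKO mice 1 and 2, *Wdr59* was no longer called (−0.66, −0.67, −0.63, −0.56 and −0.53), and neither was called with the gene length correction. *Seh1l* and *Sec13*, which also serve in the nuclear pore and, for *Sec13*, in the COPII coat, differed by 0.08 and −0.10 with overlapping ranges. *Sec13* was the most abundant of the 31 members per length in both genotypes, at 72.9 ± 6.78 TPM in WT livers. The TPM ratio of *Mios* to *Wdr59*, chosen after the values were seen, was 1.37, 1.37 and 1.47 in WT livers and 4.78, 6.71 and 4.68 in LKO livers.

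The folliculin complex showed opposite changes of 2 paralogs under TMM scaling, whereas on log2(TPM + 1) both were below 0. Folliculin (*Flcn*), the GTPase-activating subunit for RagC and RagD, was at 13.2, 18.6 and 17.6 CPM in WT livers and 12.02, 12.01 and 16.9 CPM in LKO livers and was not called (−0.27, SE 0.20, edgeR adjusted p = 0.324). Its partner *Fnip1* (chr11:54438107-54518241) was at 64.4, 71.0 and 71.3 CPM in WT livers and at 127, 160.1 and 174 CPM in LKO livers. *Fnip1* was 2.23-fold higher under TMM scaling (1.16, SE 0.16, edgeR adjusted p = 0.00109). *Fnip2* (chr3:79455971-79568151), the alternative partner, was at 28.1, 33.9 and 50.4 CPM in WT livers and at 14.1, 13.4 and 17.2 CPM in LKO livers. It was 2.51-fold lower (−1.33, SE 0.23, edgeR adjusted p = 0.00268), and every WT mouse lay above every LKO mouse.

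Because both paralogs bind folliculin, their balance was followed within each mouse. *Fnip1* exceeded *Fnip2* per length by 2.83-fold, 2.92-fold and 1.67-fold in WT livers and by 10.4-fold, 13.8-fold and 11.8-fold in LKO livers. The mean log2 difference of 2.32 between genotypes ran from 2.05 to 2.46 when 1 mouse was left out. On the TPM scale, on which nearly all members are lower in LKO livers, *Fnip1* was at 21.6 ± 1.89 in WT livers and 16.6 ± 3.86 in LKO livers and moved from the 8th to the 4th most abundant of the members, while *Fnip2* was at 9.27 ± 2.91 and 1.40 ± 0.388.

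**Figure D3:**
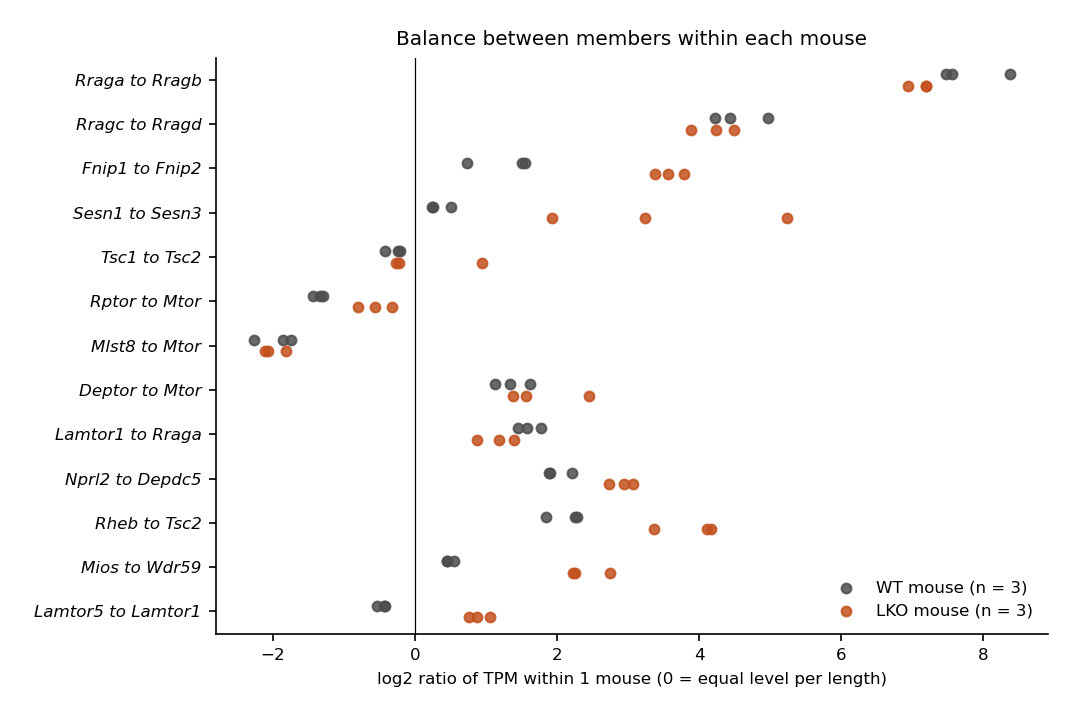
Log2 ratio of TPM between 2 members within each of the 3 WT mice (grey) and 3 LKO mice (orange), where 0 marks equal levels per length. The ratios of *Fnip1* to *Fnip2*, *Sesn1* to *Sesn3*, *Rheb* to *Tsc2*, *Mios* to *Wdr59* and *Lamtor5* to *Lamtor1* are higher in every LKO mouse, while *Mlst8* to *Mtor* and *Deptor* to *Mtor* overlap. The pairs *Rheb* to *Tsc2*, *Mios* to *Wdr59* and *Lamtor5* to *Lamtor1* were chosen after their values were seen.

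The TSC complex holds Rheb in its inactive form. *Tsc2* (chr17:24595816-24632676), which encodes tuberin, the catalytic subunit, fell from 18.9, 19.7 and 18.8 CPM to 9.70, 8.57 and 8.15 CPM. The WT mice lay within a narrow range, and the level was 2.17-fold lower in LKO livers (−1.12, SE 0.14, edgeR adjusted p = 7.7e-04). *Tsc2* overlaps the 3′ end of *Pkd1*, which was also lower (33.3 CPM in WT livers and 23.0 CPM in LKO livers on average). The reads of this pair may be mixed as well. *Tsc1*, which encodes the stabilising subunit hamartin, was at 21.0, 22.5 and 18.1 CPM in WT livers and 11.04, 9.03 and 19.1 CPM in LKO livers. LKO mouse 3 lay among the WT mice, and *Tsc1* was not called (−0.65, SE 0.27, edgeR adjusted p = 0.0854). Without LKO mouse 3 it was called lower (−1.03, edgeR adjusted p = 0.00364, with 0.00103 to 0.227 over the 19 alternatives). The TPM ratio of *Tsc1* to *Tsc2* was 0.749 to 0.864 in WT livers, 0.827 and 0.852 in LKO mice 1 and 2, and 1.92 in LKO mouse 3.

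*Rheb* (chr5:24802823-24842361), the small GTPase that activates the kinase, was at 23.3, 18.5 and 23.3 CPM in WT livers and at 26.9, 36.0 and 35.2 CPM in LKO livers. It was 1.51-fold higher under TMM scaling (0.59, SE 0.17, edgeR adjusted p = 0.0241) and turned to −0.28 against total counts. The call was lost without WT mouse 1, 2 or 3 (0.65, 0.46 and 0.63) and without LKO mouse 2 or 3 (0.52 and 0.53). Within each mouse, the TPM ratio of *Rheb* to its brake *Tsc2*, a pair chosen after the values were seen, was 4.77, 3.59 and 4.87 in WT livers and 10.3, 17.4 and 18.1 in LKO livers.

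*Slc38a9*, a lysosomal transporter that senses arginine and binds Ragulator and the Rags, was at 13.8, 17.7 and 16.2 CPM in WT livers and 16.8, 14.8 and 17.5 CPM in LKO livers (0.04, SE 0.16, edgeR adjusted p = 0.852). The ranges overlapped, and the value was near the median gene.

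The 2 sestrin genes among the members went in opposite directions under TMM scaling, whereas on log2(TPM + 0.1) *Sesn1* was at −0.047. Sestrin 3 (*Sesn3*, chr9:14276301-14326134), a FoxO target in liver, was at 7.73, 7.53 and 7.33 CPM in WT livers and at 3.52, 1.63 and 2.44 CPM in LKO livers. It was 2.96-fold lower, the largest fall among the 31 members (−1.57, SE 0.28, edgeR adjusted p = 0.00286). Sestrin 1 (*Sesn1*, chr10:41810574-41908436), a target of p53 and FoxO, was at 12.2, 14.2 and 11.4 CPM in WT livers and at 17.2, 20.1 and 113 CPM in LKO livers. Every LKO mouse lay above every WT mouse, but LKO mouse 3 set the size of the change. The log2 fold change was 1.99 (SE 0.66, edgeR adjusted p = 0.0415) with all mice and 0.56 without LKO mouse 3, still called, and the call was lost without WT mouse 1, 2 or 3 (1.98, 2.06 and 1.92). The TPM ratio of *Sesn1* to *Sesn3* was 1.197, 1.42 and 1.18 in WT livers and 3.80, 9.41 and 37.9 in LKO livers, with a mean log2 difference of 3.14 and of 2.25 without LKO mouse 3.

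LKO mouse 3 was also the highest mouse for *Ddit4*, *Irs2* and *Slc38a2*, a group put together after the values were seen. It was the highest mouse for 17 and the lowest for 7 of 55 other pathway genes, and the highest for 6 and the lowest for 10 of the 31 members. *Ddit4*, whose product REDD1 acts through the TSC complex to inhibit mTORC1, was at 6.50, 2.64 and 3.99 CPM in WT livers and at 12.6, 28.2 and 145 CPM in LKO livers (3.82, SE 0.86, edgeR adjusted p = 0.00861, and 2.21 without LKO mouse 3, still called), and lost its call on log2(TPM + 1) at 1.49. *Irs2*, an adaptor of the insulin receptor that is induced in fasting, was at 8.32, 2.84 and 4.55 CPM against 10.5, 8.37 and 45.2 CPM (2.03, SE 0.66, edgeR adjusted p = 0.0392). Its call was lost without LKO mouse 3 (0.85), WT mouse 2 (1.70) or WT mouse 3 (1.92). The amino acid transporter *Slc38a2* was at 105, 93.2 and 152 CPM in WT livers and 84.3, 179 and 371 CPM in LKO livers and did not pass the test (0.86). This is the mouse whose *Pak4* CPM lay in the WT range. Without it 4 members were called higher and 11 lower, beside 3436 and 3794 of the 19146 genes tested in that fit.

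**Figure D4:**
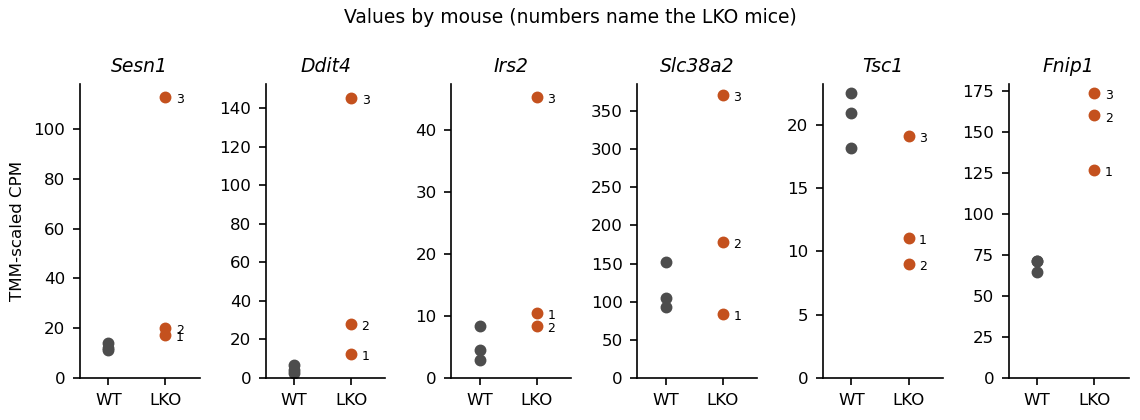
TMM-scaled CPM in each WT mouse (grey) and LKO mouse (orange, numbered) for 6 genes of the pathway, each on its own linear axis from 0. LKO mouse 3 stands far above the other LKO mice for *Sesn1*, *Ddit4* and *Irs2* and lies among the WT mice for *Tsc1*, whereas for *Fnip1*, at 127, 160.1 and 174 CPM, the 3 LKO mice lie closer together.

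Gene length went along with the changes in these libraries. Relative length was taken from the ratio of read count to FPKM. Among protein-coding genes the shortest quintile had a median log2 fold change of 0.19, and the other quintiles, from shorter to longer, −0.13, −0.16, −0.18 and −0.18. The members were unevenly spread over these quintiles. The 9 in the shortest quintile were *Rraga*, the 5 Ragulator genes, *Nprl2*, *Sec13* and *Rheb*, with a median of 0.03, 2 higher and 0 lower, beside 32.1% higher and 17.6% lower of all protein-coding genes in it. The 9 in the longest quintile were *Mtor*, *Rptor*, *Deptor*, *Depdc5*, *Fnip1*, *Fnip2*, *Tsc1*, *Tsc2* and *Slc38a9*, with a median of −0.86, 1 higher and 6 lower, beside 14.7% and 25.9%.

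After a correction for length within each mouse, 5 members were called higher and 9 lower (background 19.9% and 18.7% of all genes). *Mtor* was then at −1.07, *Depdc5* at −1.08, *Fnip2* at −1.15, *Tsc2* at −0.95, *Sesn3* at −1.50, *Fnip1* at 1.32, *Mios* at 1.31 and *Lamtor5* at 0.52, all still called. *Lamtor1* (−0.63) and *Lamtor2* (−0.69) became called as lower, and *Rptor*, *Wdr24* and *Wdr59* lost their calls. The opposite changes of *Fnip1* and *Fnip2* were between 2 genes of the longest quintile.

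**Figure D5:**
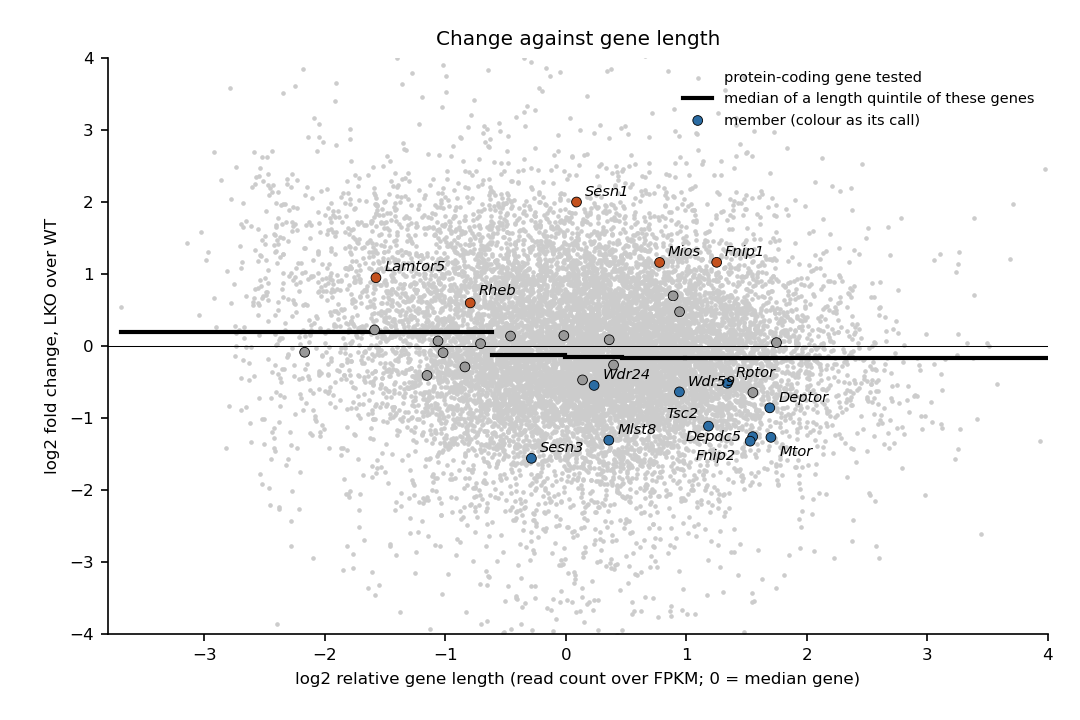
Log2 fold change of LKO over WT under TMM scaling against log2 relative gene length (read count over FPKM, 0 is the median gene) for protein-coding genes (small grey points) and members (large points, orange higher, blue lower, grey not called); genes outside the axis limits are not drawn. Black bars are medians of length quintiles of these genes, 0.19 in the shortest and −0.18 in the longest, and most long members lie below the bar while *Fnip1* lies above it.

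The order of the members by level per length also differed between genotypes. In WT mice *Sec13*, *Lamtor2* (46.4 TPM), *Lamtor4* (46.1 TPM), *Lamtor1* (41.1 TPM) and *Deptor* (38.9 TPM) led the list, and *Lamtor2*, *Lamtor4*, *Lamtor1* and *Deptor* did not differ beyond their spread (SD 6.03, 5.48, 2.85 and 8.51). *Rragd* (0.706 TPM) and *Rragb* (0.0633 TPM) were last in both genotypes. From WT to LKO, *Lamtor5* moved from rank 6 to 2 and *Mios* from 22 to 13, while *Mtor* moved from 11 to 18 and *Sesn3* from 20 to 27. *Sesn1* moved from 19 to 7 by its mean, which LKO mouse 3 alone set (13.6 TPM, SD 16.35, in LKO livers). The summed TPM of the 31 members was 506 to 513 in WT livers and 156 to 224 in LKO livers.

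The promoters of the members were read for CACGTG, the core of the site bound by TFEB and TFE3, which mTORC1 restrains, and also by other E-box factors such as MYC and USF. RefSeq promoter windows of GRCm38.p6, from 250 bases before to 50 bases after the start, were found for 27 members. The palindrome CACGTG was present in 6 of them (22.2%: *Rragb*, *Rragc*, *Lamtor1*, *Lamtor4*, *Fnip1* and *Rheb*), beside 8.09% of 27025 genes with a window. Those genes were not limited to the genes that passed the count filter, as all members did, so the shares come from unlike sets. The longer CLEAR palindrome, with GT before and AC after that core, was in none of the 27 and in 0.37% of all genes. The forkhead (FoxO) motif GTAAACA, searched on both strands, was, among the members, in the window of *Sesn1* alone (1 of 27), beside 4.05% of all genes. *Rragb* holds 3 matches within a stretch of 170 bases, which is not shown. The 5 stretches below have the motif in capitals and are read along the strand of the gene. They cover the 2 motif-bearing genes called higher under TMM scaling and 3 that, like *Rragb*, were not called. They are *Fnip1* (chr11:54438084-54438129, plus strand), *Rheb* (chr5:24842432-24842477, minus strand), *Rragc* (chr4:123917301-123917346, plus strand), *Lamtor1* (chr7:101905749-101905794, plus strand) and *Lamtor4* (chr5:138255342-138255403, plus strand, which holds the motif more than once).
Fnip1: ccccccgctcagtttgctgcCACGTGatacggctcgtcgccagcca
Rheb: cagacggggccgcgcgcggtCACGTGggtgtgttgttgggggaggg
Rragc: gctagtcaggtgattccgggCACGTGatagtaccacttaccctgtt
Lamtor1: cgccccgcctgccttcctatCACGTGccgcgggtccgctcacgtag
Lamtor4: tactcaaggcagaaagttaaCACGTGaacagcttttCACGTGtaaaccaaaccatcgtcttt
Of the 6 genes with the motif, *Fnip1* (1.16) and *Rheb* (0.59) were called higher under TMM scaling, *Rragb* (0.69), *Rragc* (0.14) and *Lamtor4* (0.22) were above 0 without a call, and *Lamtor1* was at −0.41. The flanking bases differ between these promoters. A motif match describes the sequence and is not a measured site.

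Of 55 other genes of the pathway, listed by role and all tested, 10 were higher and 10 were lower, 18.2% in each direction, with a median of −0.09. These shares were below the 19.6% and 20.5% of all genes. The vacuolar ATPase, the proton pump that couples lysosomal amino acids to Ragulator, was the largest of these groups and had the most calls. Of its 16 genes 6 were higher and 4 lower (37.5% and 25%, beside 19.6% and 20.5% of all genes). After the gene length correction 3 were higher and 3 lower, where 19.9% and 18.7% of all genes were called. *Atp6v0e* rose from 13.6 to 15.7 CPM in WT livers to 38.7 to 62.7 CPM in LKO livers (1.68, SE 0.21, edgeR adjusted p = 6.3e-04), and on log2(TPM + 1) was at 0.10 without a call. *Atp6v1h*, a regulatory subunit, rose from 47.0 to 50.3 CPM to 118 to 135 CPM (1.38, SE 0.14, edgeR adjusted p = 3.3e-04), turning to −0.22 on log2(TPM + 1). *Atp6v0a2* fell from 34.1 to 45.2 CPM to 15.2 to 19.4 CPM (−1.20, SE 0.16, edgeR adjusted p = 9.9e-04). As in GATOR2 and the folliculin complex, subunits of 1 complex were called in both directions, where 40.1% of all genes were called.

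Among 3 genes for arginine and S-adenosylmethionine sensors, *Bmt2*, which encodes SAMTOR, was higher (0.57, edgeR adjusted p = 0.0186). Its call was lost without any 1 of the 3 WT mice (0.53 to 0.58) or without LKO mouse 2 (0.43), and it turned to −0.31 against total counts. *Tbc1d7*, the third TSC subunit, was lower together with *Tsc2* (−0.81, edgeR adjusted p = 0.0327), a call lost without WT mouse 1, 2 or 3 (−0.72, −0.84 and −0.91) or LKO mouse 2 or 3 (−0.82 and −0.64).

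Of 11 substrates and effectors, 1 was higher and 2 were lower. The translation repressor *Eif4ebp2* fell (−0.88, SE 0.14, edgeR adjusted p = 0.00192). *Eif4ebp1* passed narrowly (−0.54, edgeR adjusted p = 0.0487), and lost the call without any mouse but LKO mouse 3 (−0.41 to −0.63). *Maf1*, a repressor of RNA polymerase III, was higher (0.77, SE 0.17, edgeR adjusted p = 0.00847) and turned to −0.09 against total counts. Of 4 genes for subunits specific to mTORC2, 0 were called in the edgeR fit with TMM or by DESeq2, and 0 had an unadjusted p under 0.05. With the gene length correction *Rictor*, a scaffold of mTORC2, was called higher (0.62), whereas against total counts 2 of the 4 and in both TPM fits all 4 were called lower. Of 10 insulin and energy inputs, *Ddit4* and *Irs2* were higher and *Prkaa2*, a catalytic subunit of AMPK, was lower (−0.70, SE 0.15, edgeR adjusted p = 0.00625). Of 5 amino acid transporters, the lysosomal *Slc36a1* was lower (−1.41, SE 0.25, edgeR adjusted p = 0.00321).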

How the data were processed

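Reads were sequenced from 1 liver library per mouse (3 WT, 3 LKO). Per the labels, an mRNA kit with 1 μg of RNA was used, whereas the methods name a total RNA kit after rRNA removal. The authors deposited 1 table of 45777 genes with unnormalized read counts, FPKM and TPM from StringTie (2.1.3b in the submitters' processing notes, with HISAT2 2.1.0 and mm10). FPKM entered only the relative gene length, and TPM, which the authors scaled within each mouse, gave levels per length, the ratios and 2 alternatives.

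Genes with more than 1 zero count were left out. Counts of 18636 genes were TMM-scaled and compared by genotype with the two-sided quasi-likelihood test of edgeR 4.0.16 (R 4.3.3), with Benjamini-Hochberg adjustment over all genes and a threshold of 0.05. The common biological coefficient of variation was 0.254. Ratios were not tested, since 3 against 3 mice cannot give an exact p under 0.1. The 19 alternatives were other scalings, filters and tests (DESeq2 1.42.0, edgeR exactTest, limma 3.58.1 on log2(TPM + 1) and log2(TPM + 0.1)), protein-coding genes alone, a gene length correction (lowess, span 0.3), a replicate block, the block with the length correction, and leaving out each mouse.

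The members and the lists of other pathway genes and markers were chosen with earlier results of these data known. Values per mouse and test results are given for members called and for Mtor, Rptor, Rraga, Rragc, Flcn, Tsc1, Tsc2, Rheb, Slc38a9 and Sesn1, and for at most 3 called genes per other group. The result of 1 group of other pathway genes is not reported here, and its genes stay in the counts. The values of other genes named, such as Slc38a2, were chosen after they were seen. In simulated counts of LKO against WT for 18451 genes, 64 of 100 genes changed by 1 on the log2 scale and 100 of 100 changed by 2 were recovered, with 8 false calls. The simulated spread between mice was smaller than in these libraries. Few genes were changed, equally in both directions, and the simulated genotypes did not differ in library makeup. These figures therefore do not measure recovery or false calls in the real libraries.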

Additional observations from a re-analysis of the deposited data

How the results depend on the processing

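Over the 19 alternatives, the calls of *Mtor*, *Mlst8*, *Deptor*, *Depdc5*, *Fnip2*, *Tsc2* and *Sesn3* as lower held in all, and those of *Lamtor5*, *Mios* and *Fnip1* as higher in 16, not with total counts nor in the 2 TPM fits. Members called higher were 5 in the reported fit, 0 with total counts, 0 in both TPM fits, 3 with the replicate block, 3 with the block and length correction, and 3 to 5 with 1 mouse left out. Members called lower were 10, and 24 with total counts, 27 in both TPM fits and 7 to 11 with 1 mouse left out. Other pathway genes called higher were 10, and 3, 0 and 0 in those 3 fits and 6 to 11 with 1 mouse left out. Those called lower were 10, and 37, 49 and 49, and 7 to 13. Of all genes, 3661 were higher and 3815 lower, against 1167 and 9575 with total counts, 453 and 13322 on log2(TPM + 1), and 467 and 13535 on log2(TPM + 0.1). These 3 alternatives move the zero point of every gene, by −0.86 for total counts. They favour calls as lower, so they do not set the falls apart from the rises.

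With total counts the log2 fold change turned to −0.71 for *Akt1s1*, −0.31 for *Bmt2*, −0.81 for *Lamtor3*, −0.64 for *Lamtor4*, −0.085 for *Maf1*, −0.28 for *Rheb*, −0.83 for *Rraga*, −0.15 for *Rragb*, −0.72 for *Rragc*, −0.42 for *Rragd*, −0.77 for *Seh1l* and −0.82 for *Slc38a9*. On log2(TPM + 1) and log2(TPM + 0.1) in turn, it was −1.12 and −1.32 for *Akt1s1*, −0.22 and −0.22 for *Atp6v1h*, −0.84 and −0.97 for *Bmt2*, −0.38 and −0.40 for *Fnip1*, −1.33 and −1.47 for *Lamtor3*, −1.30 and −1.35 for *Lamtor4*, −0.58 and −0.60 for *Lamtor5*, −0.67 and −0.76 for *Maf1*, −0.20 and −0.24 for *Mios*, −0.91 and −0.95 for *Rheb*, −1.34 and −1.49 for *Rraga*, −0.04 and −0.27 for *Rragb*, −1.28 and −1.40 for *Rragc*, −0.36 and −0.89 for *Rragd*, −1.30 and −1.44 for *Seh1l*, and −1.05 and −1.50 for *Slc38a9*. *Sesn1* was at −0.047 on log2(TPM + 0.1). With the length correction *Lamtor3* was at −0.10, *Lamtor4* at −0.22 and *Rraga* at −0.0055, and with the block and length correction at −0.10, −0.22 and −0.0014. With 1 mouse left out, uncalled values crossed 0 for *Akt1s1* (−0.029 to 0.29), *Lamtor2* (−0.24 to 0.040), *Rraga* (−0.072 to 0.12), *Sec13* (−0.24 to 0.028), *Slc38a9* (−0.045 to 0.11) and the TPM ratio of *Mlst8* to *Mtor* (−0.20 to 0.062). The cause of these changes was not tested.

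Deviations of same-numbered WT and LKO mice had correlations across genes of 0.00023, −0.039 and −0.056, beside −0.020 to 0.056 for differently numbered mice. These values gave no sign of pairing by number, but they cannot show that the mice were unpaired. The reported fit treated them as unpaired. Under the replicate block 3129 genes were higher and 3302 lower, and *Rheb*, *Sesn1*, *Rptor* and *Wdr24* lost their calls. A minimum of 10 counts in every mouse left *Rragb* untested and 30 members in the fit. At the depth of *Rragb* (0.094 to 0.295 CPM) the counts limit what can be seen.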
